A study of Mus musculus with 36 samples.

Results

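The response of the mouse embryonic stem cell (mES cell) transcriptome to loss of ZCCHC8 was set against its response to loss of YTHDC1. The comparison used the read counts of all 24 libraries of the ZCCHC8 and YTHDC1 degron lines, out of 36 libraries in the series, with 12 from each line. The cells are XX mES cells of a Cast x 129S cross in which a doxycycline-dependent TetOn promoter replaces the Xist promoter on the 129S allele and Xist carries Bgl stem loops. Each line is 1 clone (Z12H for ZCCHC8, Y12H for YTHDC1) whose target protein carries the FKBP12 F36V tag, so that dTAG-13 sends it to degradation. Cells of the dTAG arm received dTAG-13 for 2 h before 1 µg/ml doxycycline was added, cells of the Ctrl arm received none, and both arms were induced for 20 h and then labelled for 4 h with 500 µM 4-thiouridine (4sU) in doxycycline. RNA was taken at the end of the pulse (0 min) or after 90 or 180 min in doxycycline and 50 mM uridine, with 2 replicates of each line, arm and time. Xist was therefore induced in every library, Ctrl included, and the cells had been grown on fibroblast feeders and preplated.

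ZCCHC8 is a scaffold of the nuclear exosome targeting (NEXT) complex, which hands short and unprocessed nuclear RNAs, such as promoter upstream transcripts and RNAs that end early, to the RNA exosome for decay. YTHDC1 is the nuclear reader of N6-methyladenosine (m6A). In mES cells it is known for acting on splicing, on RNA decay at chromatin and on the silencing of retroelements. The comparison asks which transcripts depend on both proteins in the same sense and which respond in opposite senses.

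Libraries held between 5274684 and 10257631 reads in genes in the ZCCHC8 line and between 10397753 and 16129632 in the YTHDC1 line, so that low genes are less precisely measured in the former. Summed over 10 markers of mES cells, levels lay between 2928 and 4037 CPM (reads scaled to a common library size) in all 24 libraries. All 15 fibroblast markers were also detected. Their summed level was 409 to 460 CPM in Ctrl against 420 to 482 CPM with dTAG in the ZCCHC8 line, and 265 to 365 CPM against 254 to 354 CPM in the YTHDC1 line, so the arms overlapped within each line, and the part of feeder RNA in the results was not tested. The tag acts on protein, and the RNA of the targets does not check the depletion. Zcchc8 RNA differed by 0.07 ± 0.07 (log2, SE) after its own protein was depleted, whereas Ythdc1 RNA rose by 0.58 ± 0.07 after YTHDC1 depletion, with an edgeR adjusted p of 3.35e-06. In bulk RNA, fewer cells with a transcript and less RNA per cell cannot be told apart.

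Both depletions changed many transcripts, and the 2 responses were barely correlated gene by gene. Of 14270 genes tested, 40.2% changed after ZCCHC8 and 30.1% after YTHDC1 depletion. By direction, 2847 were higher (20.0%) and 2886 lower (20.2%) after ZCCHC8 depletion, and 1974 were higher (13.8%) and 2320 lower (16.3%) after YTHDC1 depletion, at an edgeR adjusted p under 0.05, which is what "called" means below. Changes were larger in the ZCCHC8 line, where 631 called genes differed over 2-fold, against 110 in the YTHDC1 line. The difference between the 2 responses, tested as the interaction of arm with line, was called for 5539 genes (38.8%). The response was higher in the ZCCHC8 line for 2851 of them (20.0%) and lower for 2688 (18.8%). Across genes the responses correlated with a Pearson r of -0.06 and a Spearman rho of -0.06, while the same response in replicate 1 and replicate 2 correlated with r = 0.86 in the ZCCHC8 and r = 0.66 in the YTHDC1 line. These are descriptions over genes, which are not independent replicates, and the lines have separate control libraries.

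Among 1927 genes called in both lines, 893 moved together and 1034 in opposite directions. The genes that moved together were 366 higher in both (2.56% of genes tested) and 527 lower in both (3.69%). The opposite genes were 549 higher after ZCCHC8 and lower after YTHDC1 depletion (3.85%) and 485 the other way (3.40%). A called difference was part of the definition of the opposite groups, a condition that removed 0 genes, so it adds no support to them. Shares of each list stood close to the shares over all genes. Genes lower after YTHDC1 depletion made up 19.3% of those higher after ZCCHC8 depletion, against 16.3% of all genes tested. Genes higher after YTHDC1 depletion made up 12.9% of the same list, against 13.8% of all genes. Of the genes that were lower after ZCCHC8 depletion, 18.3% were also lower after YTHDC1 depletion and 16.8% were higher, against 16.3% and 13.8% of all genes. In the other direction, the 366 and 527 genes that moved together were 18.5% and 22.7% of the genes higher and lower after YTHDC1 depletion, and the opposite genes were 23.7% of the genes lower and 24.6% of the genes higher. The matching shares over all genes were 20.0% and 20.2% for the genes that moved together and 20.0% and 20.2% for the opposite genes.

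The signs held between replicates. Of 130 genes called higher after ZCCHC8 and lower after YTHDC1 depletion from replicate 1 alone, all 130 had those signs in replicate 2, a combination that 25.2% of all genes had, and 98 were called again. Of 62 genes called the other way in replicate 1, 60 kept their signs in replicate 2, and for the genes that moved together the counts were 87 of 91 higher and 129 of 134 lower. Read the other way, from replicate 2 to replicate 1, signs held for 90.0 to 95.0% of the genes called, but 25.1% of the first opposite group, 9.76% of the second, 25.9% of genes higher and 24.3% of genes lower in both were called again. The counts themselves depended on the fit. Without the replicate number as a block, 139 genes were higher in both, 147 lower in both, 217 higher after ZCCHC8 and lower after YTHDC1 depletion and 129 the other way. With 2 replicates that the labels do not describe as separate cultures, p-values measure the spread between these samples, which may be technical. With replicate as a block, that spread comes largely from libraries of different chase times in the same replicate and arm. Fits to a single replicate hold no replication, so their calls rest on chase times standing in for replicates.

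**Figure D1:**
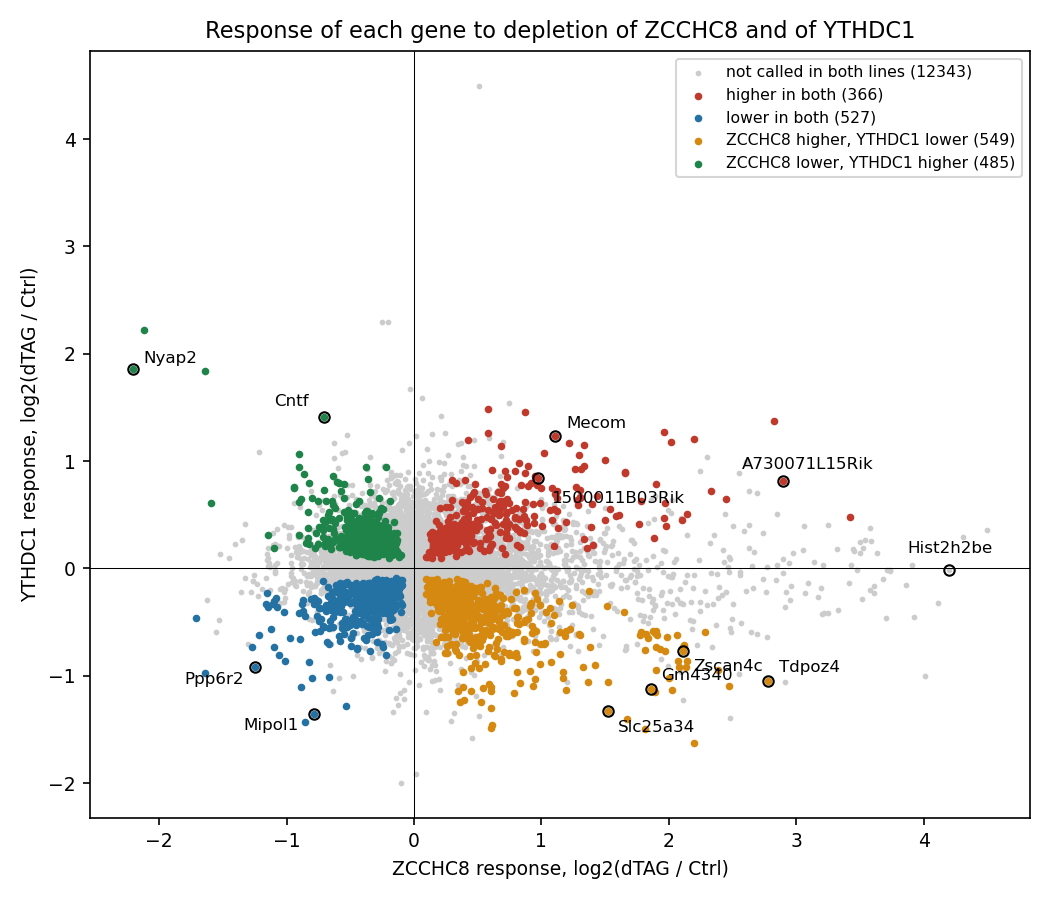
Log2 change (dTAG over Ctrl) of each of 14270 genes in the ZCCHC8 line (x axis) against the YTHDC1 line (y axis), with the 4 groups called in both lines in colour, grey for the other genes and circles on named genes. The cloud is wider along the ZCCHC8 axis, and the genes with a large change in both lines lie in the upper right, the lower right (Zscan4c, Tdpoz4, Gm4340, Slc25a34) and, for a few such as Nyap2, the upper left.

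The clearest opposite response was that of genes of the two-cell-like state, a rare state of mES cells that re-expresses genes of the 2-cell embryo such as the Zscan4 cluster. All 17 members tested rose after ZCCHC8 depletion, against 20.0% of all genes, and all 17 passed the test of the difference. The list held 22 names, of which 19 were in the data and 17 passed the filter on low counts. That filter can keep a low gene for its level in the ZCCHC8 dTAG arm alone, so it may favour members that rose there. After YTHDC1 depletion none rose and 8 fell (47.1%, against 16.3% of all genes). The falls were less stable than the rises, with 3 left without the replicate block or without either replicate of the YTHDC1 line, 3 without the 90 min libraries and 2 of 16 after thinning, while all members tested rose after ZCCHC8 depletion in each of these. Without the block 16 of 17 and after thinning 13 of 16 differences were called. Their median response was 1.90 in the ZCCHC8 and -0.61 in the YTHDC1 line, against -0.01 and -0.00 over all genes tested. The summed level of the 17 genes was 73.4 to 116 CPM in the Ctrl against 242 to 460 CPM in the dTAG libraries in the ZCCHC8 line. In the YTHDC1 line it was 19.5 to 43.7 CPM in Ctrl against 14.3 to 30.8 CPM in dTAG libraries, so this line started lower. The arms were apart in the ZCCHC8 line and overlapped in the YTHDC1 line, where the replicates stood at different levels. Within replicate 1 of the YTHDC1 line, Ctrl lay at 19.5 to 28.9 CPM against 14.3 to 17.0 CPM with dTAG. Within replicate 2 it lay at 37.5 to 43.7 CPM against 29.5 to 30.8 CPM, so the arms were apart within each replicate.

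Zscan4c (chr7:11005745-11010547 in mm10, plus strand), a zinc-finger gene of telomere maintenance in these cells, lay at 7.25, 9.67 and 11.5 CPM (lowest, median, highest of 6) in Ctrl and 26.7, 40.7 and 55.4 CPM in dTAG libraries of the ZCCHC8 line. In the YTHDC1 line it lay at 1.23, 3.19 and 4.54 CPM in Ctrl against 0.70, 1.63 and 3.42 CPM in dTAG. All dTAG libraries exceeded all Ctrl libraries in the ZCCHC8 line, a separation that 8.57% of all genes showed there, while the ranges overlapped in the YTHDC1 line, where 2.21% of genes separated. Its log2 responses were 2.11 ± 0.10 (SE) and -0.77 ± 0.17, with edgeR adjusted p of 5.61e-19 and 8.4e-04. Their difference was 2.88 ± 0.20, with an edgeR adjusted p of 7.55e-14. Every same-time pair of the same replicate number moved these ways, 6 of 6 up in the ZCCHC8 line and 0 of 6 up in the YTHDC1 line.

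Zfp352 (chr4:90218820-90225702), another zinc-finger gene of this state, lay at 6.29, 9.28 and 16.2 CPM in Ctrl against 32.5, 40.0 and 61.2 CPM in dTAG libraries in the ZCCHC8 line, with no overlap. In the YTHDC1 line it lay at 1.61, 4.25 and 5.33 CPM against 1.23, 2.24 and 3.90 CPM, with overlap. The responses were 2.12 ± 0.09 and -0.71 ± 0.15, and the difference was 2.83 ± 0.18 (edgeR adjusted p = 2.75e-15). Tdpoz3 differed by 3.06 ± 0.45 and Gm4340 by 2.98 ± 0.42, and Gm4340 fell in the YTHDC1 line from a median of 0.63 to 0.37 CPM with no overlap, though 1 dTAG library held no read. Zscan4d, Zscan4f, Tcstv3, Usp17lc and Tdpoz4 were the other members called in both lines, with responses of 1.78 (Usp17lc) to 2.78 (Tdpoz4) and of -1.05 (Tdpoz4) to -0.59 (Usp17lc). The Zscan4, Usp17l, Tcstv and Tdpoz genes have close copies, and only reads with 1 alignment were kept, so reads shared between copies are missing and the values of single copies are uncertain.

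The promoters of this group share a feature that the comparison did not use. They were read from RefSeq's mouse promoter sequences on GRCm38.p6, which run from 250 bases before to 50 bases after the start and covered 12 of the 17 genes. Their count of CG dinucleotides, which reads the same on both strands, had a median of 1.5 and a highest value of 4, against a median of 20 over 10780 promoters of genes tested. All 12 had 5 or fewer, as did 10.3% of all promoters, and 99.4% of all promoters held at least 1. Over the whole groups the medians were 19 for genes higher after ZCCHC8 and lower after YTHDC1 depletion and 18 for genes higher in both, so the larger groups did not share it. Shown are 3 promoters of the two-cell-like group and, for contrast, that of 1500011B03Rik, a gene that rose in both lines, with CG in capitals. They lie at chr7:11005495-11005794 (plus strand, 4 CG), chr4:90218570-90218869 (plus, 2 CG), chr3:93796148-93796447 (plus, 0 CG) and chr5:114813927-114814226 (minus, 27 CG). The last lies at a start inside the span annotated for 1500011B03Rik by GENCODE, not at its outermost end.
Zscan4c: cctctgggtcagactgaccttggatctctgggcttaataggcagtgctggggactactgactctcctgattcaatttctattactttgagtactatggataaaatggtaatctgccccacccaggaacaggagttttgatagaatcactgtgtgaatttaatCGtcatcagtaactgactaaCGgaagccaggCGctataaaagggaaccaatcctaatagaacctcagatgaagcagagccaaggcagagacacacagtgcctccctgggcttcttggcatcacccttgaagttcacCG
Zfp352: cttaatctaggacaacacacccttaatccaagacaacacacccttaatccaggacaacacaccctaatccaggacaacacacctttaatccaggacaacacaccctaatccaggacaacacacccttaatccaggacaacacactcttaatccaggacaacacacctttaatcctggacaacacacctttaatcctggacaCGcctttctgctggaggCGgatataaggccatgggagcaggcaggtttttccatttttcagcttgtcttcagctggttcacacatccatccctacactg
Tdpoz4: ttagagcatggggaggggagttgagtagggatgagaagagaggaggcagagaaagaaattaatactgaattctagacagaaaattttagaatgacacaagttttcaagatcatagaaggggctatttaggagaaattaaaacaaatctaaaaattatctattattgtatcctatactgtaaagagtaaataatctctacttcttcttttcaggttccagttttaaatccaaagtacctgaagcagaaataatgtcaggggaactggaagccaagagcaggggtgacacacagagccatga
1500011B03Rik: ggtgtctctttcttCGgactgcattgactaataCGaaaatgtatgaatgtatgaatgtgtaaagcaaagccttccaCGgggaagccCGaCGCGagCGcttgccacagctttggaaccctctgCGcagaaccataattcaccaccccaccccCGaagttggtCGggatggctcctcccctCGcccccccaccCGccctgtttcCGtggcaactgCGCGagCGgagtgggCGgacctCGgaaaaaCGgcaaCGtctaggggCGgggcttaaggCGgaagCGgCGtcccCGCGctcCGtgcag

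Over all genes, 8 led the group that was higher after ZCCHC8 and lower after YTHDC1 depletion, ranked by the smaller of their 2 changes. Slc25a34 (chr4:141618824-141623821), a mitochondrial carrier, lay at 1.26, 2.42 and 3.40 CPM in Ctrl against 3.52, 6.34 and 11.1 CPM in dTAG libraries in the ZCCHC8 line. In the YTHDC1 line it lay at 0.72, 2.00 and 3.50 CPM against 0.20, 0.75 and 1.14 CPM. The arms were apart in the former and overlapped in the latter, and the difference of responses was 2.85 ± 0.27 (edgeR adjusted p = 1.36e-10). Parp3, a poly(ADP-ribose) polymerase of the response to DNA breaks, rose by 1.32 ± 0.16 in the ZCCHC8 line and fell by 0.92 ± 0.20 on the log2 scale in the YTHDC1 line. Ehd2, a protein of caveolae, changed by 1.20 ± 0.21 and -1.13 ± 0.29, and its arms did not overlap in either line. Shisa7, an auxiliary subunit of neurotransmitter receptors, changed by 0.95 ± 0.15 and -1.03 ± 0.20. The others were the noncoding AC121569.2, the two-cell-like Gm4340 and the predicted genes Gm12800 and Gm2035, with differences of 3.16, 2.98, 3.33 and 2.84. AC121569.2, Gm4340 and Gm12800 averaged over 2 CPM in the dTAG libraries of the ZCCHC8 line alone (7.23, 7.18 and 6.60 CPM). In the YTHDC1 line their medians were near the floor, at 0.75, 0.63 and 0.78 CPM in Ctrl against 0.41, 0.37 and 0.39 CPM in dTAG. Each had a dTAG library without reads there, so these falls are uncertain.

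Immediate early genes held 1 gene of each opposite group, groups that held 3.85% and 3.40% of all genes tested. With 18 genes in the list, 1 gene in each is near those shares. Of 18 tested, 8 rose and 1 fell after ZCCHC8 depletion (44.4% rose, against 20.0% of all genes), and 3 rose and 1 fell after YTHDC1 depletion (16.7% rose, against 13.8%). Without the replicate block 4 rose after ZCCHC8 depletion and none after YTHDC1 depletion. Dusp1 (chr17:26505590-26562128), a phosphatase that turns off MAP kinases, had medians of 12.5 CPM in Ctrl against 25.6 CPM in dTAG libraries in the ZCCHC8 line and 8.72 against 6.03 CPM in the YTHDC1 line, with overlap in both lines. Its difference of responses was 1.51 ± 0.15 (edgeR adjusted p = 4.7e-10), up in 6 of 6 pairs of the ZCCHC8 line and in 0 of 6 of the YTHDC1 line. Fosl1, a subunit of the transcription factor AP-1, did the reverse, with responses of -0.75 ± 0.14 and 0.63 ± 0.14. Dusp1 overlaps 2 annotated genes on the opposite strand and 2 on the same strand, and the use of strand in counting is not given in the sources used here.

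**Figure D2:**
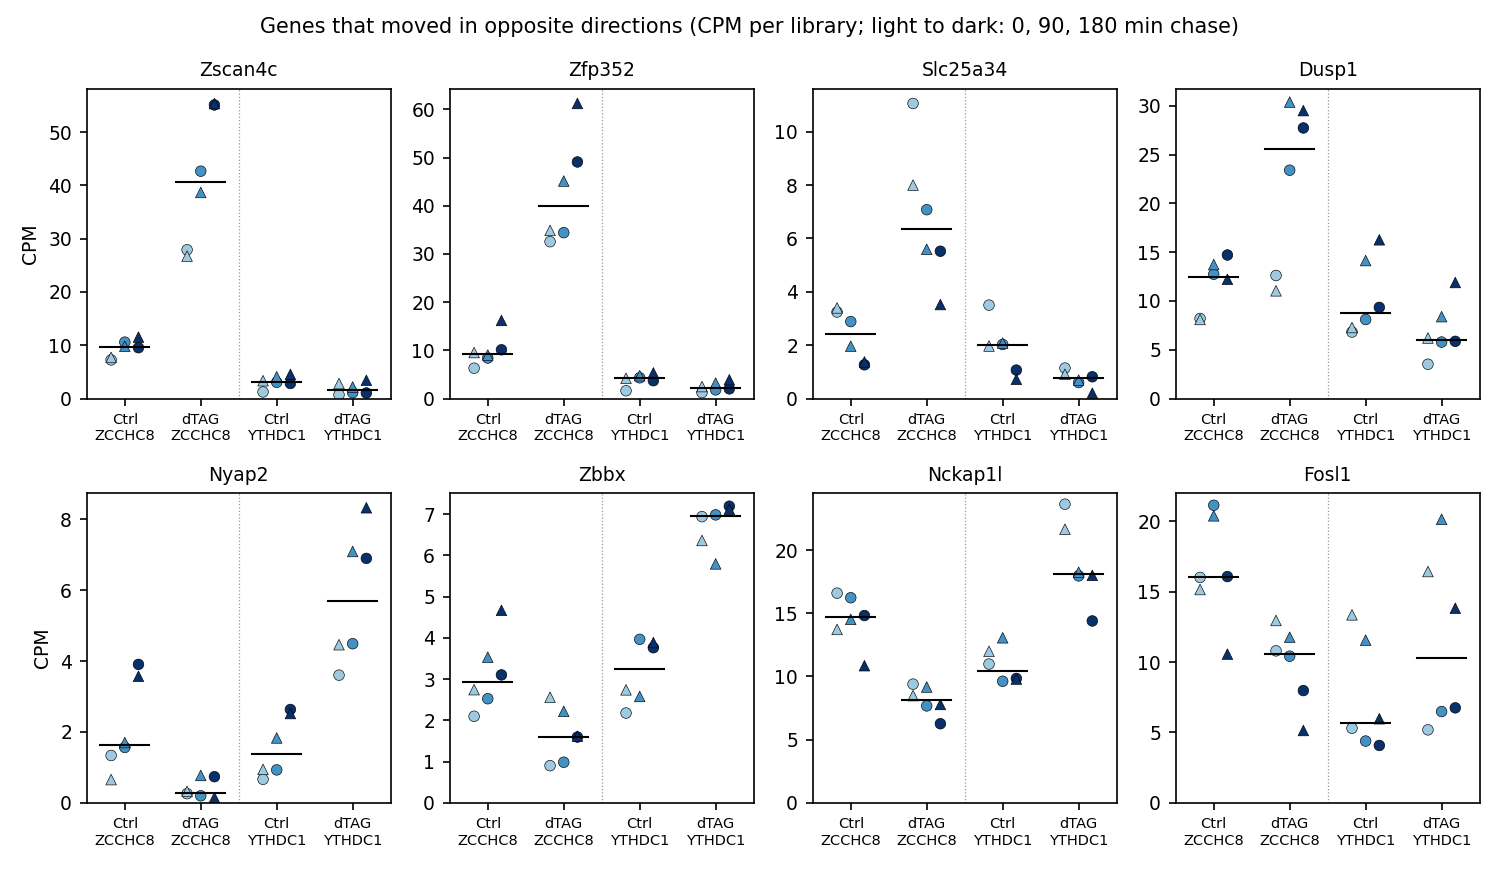
CPM of 8 genes that moved in opposite directions, per library, in the Ctrl and dTAG arms of the ZCCHC8 (left pair) and YTHDC1 (right pair) lines, with circles for replicate 1, triangles for replicate 2, lighter to darker points for 0, 90 and 180 min and a bar at the median of 6 libraries. For Zscan4c and Zfp352 the dTAG points of the ZCCHC8 line all lie above Ctrl, and for Nyap2, Zbbx and Nckap1l the dTAG points of the YTHDC1 line do.

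The genes lower after ZCCHC8 and higher after YTHDC1 depletion had smaller changes, with median responses of -0.33 and 0.25. Both changes exceeded 0.5 on the log2 scale in 31 of 485, against 124 of the 549 genes that moved the other way. Nyap2 (chr1:81076950-81341764), a neuronal adaptor of PI3 kinase signalling, lay at 0.65, 1.63 and 3.91 CPM in Ctrl against 0.15, 0.29 and 0.77 CPM in dTAG libraries in the ZCCHC8 line, and at 0.66, 1.39 and 2.63 CPM against 3.60, 5.69 and 8.33 CPM in the YTHDC1 line. The arms overlapped in the ZCCHC8 line and were apart in the YTHDC1 line, and the difference of responses was -4.06 ± 0.36 (edgeR adjusted p = 3.5e-11). Nckap1l (chr15:103453794-103498810), the haematopoietic subunit of the WAVE actin regulator, was apart in both lines, with 10.8, 14.7 and 16.6 CPM against 6.26, 8.13 and 9.39 CPM in the ZCCHC8 line and 9.62, 10.4 and 13.1 CPM against 14.4, 18.1 and 23.6 CPM in the YTHDC1 line. Its responses were -0.82 ± 0.11 and 0.80 ± 0.08. Cntf, a neurotrophic cytokine, differed by -2.12 ± 0.29, Zbbx by -1.97 ± 0.23, Sntb1, a syntrophin of the dystrophin complex, by -1.85 ± 0.20, and Frmd5 by -1.46 ± 0.20. Angpt2, a ligand of the receptor Tie2, changed by -0.88 ± 0.11 and 0.64 ± 0.09, and Klhl36 by -0.63 ± 0.19 and 0.86 ± 0.15. Ckm, the muscle creatine kinase, also had a strongly negative difference (-1.74) but was called in the ZCCHC8 line alone.

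X-linked genes were more frequent in this group. They were 57 of its 483 annotated members (11.8%) but 3 of 549 (0.55%) in the group that moved the other way, against 3.61% of all annotated genes tested, 3.85% of genes higher in both and 4.74% of genes lower in both. Rai2 and Zxdb, 2 of the 8 leading genes, are X-linked, with differences of -1.74 ± 0.30 and -1.70 ± 0.19. Of 513 X-linked genes other than Xist, 248 (48.3%) had a lower response in the ZCCHC8 line and 35 (6.82%) a higher one. Over all genes tested these shares were 18.8% and 20.0%. The median X-linked change less the median autosomal change was between -0.28 and -0.15 in the 6 pairs of the ZCCHC8 line and between 0.05 and 0.12 in those of the YTHDC1 line, so the lines did not overlap. Xist itself (chrX:103460366-103483254), the RNA that silences the X chromosome in cis, lay at 713, 1332 and 1717 CPM in Ctrl against 1491, 2151 and 2864 CPM in dTAG libraries in the ZCCHC8 line, and at 304.5, 774 and 946 CPM against 309.8, 579 and 825 CPM in the YTHDC1 line, with overlap of the arms in both. Its difference of responses was 1.06 ± 0.16 (edgeR adjusted p = 5e-05). Its response was called in the ZCCHC8 line (0.78 ± 0.11) and not in the YTHDC1 line (-0.28 ± 0.11). In replicate 1 alone 7 X-linked genes had a higher and 106 a lower response, and in replicate 2 alone 28 and 228 did.

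LincRNAs differed between the lines more often than other genes, though most of the 5539 called differences were in protein-coding genes (2627 higher and 2668 lower). Of 372 lincRNAs tested, 200 (53.8%) had a higher response in the ZCCHC8 line and 16 (4.30%) a lower one, against 20.0% and 18.8% of all genes. The lincRNAs called in both lines were 23 higher in both, 0 lower in both, 23 higher after ZCCHC8 and lower after YTHDC1 depletion and 4 the other way. They formed 6.32% of the genes higher in both and 4.19% of the genes higher after ZCCHC8 and lower after YTHDC1 depletion, against 2.61% of all annotated genes tested. Of 946 single-exon genes, 51 were higher in both (14.0% of that group) and 58 higher after ZCCHC8 and lower after YTHDC1 depletion (10.6%), against 6.64% of all genes.

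Among 19 named nuclear long noncoding RNAs, 15 rose and none fell after ZCCHC8 depletion (78.9% rose, against 20.0% of all genes). After YTHDC1 depletion 2 rose and 5 fell (10.5% and 26.3%, against 13.8% and 16.3%). The difference was called for 14 (73.7%, against 20.0% of all genes), all with the higher response in the ZCCHC8 line. The 5 opposite members were Meg3, Platr4, Platr10, Lncenc1 and Mir124a-1hg. Meg3 (chr12:109541001-109571726), an imprinted RNA of the Dlk1-Dio3 domain, lay at 247, 318 and 358 CPM in Ctrl against 400, 442 and 478 CPM in dTAG libraries in the ZCCHC8 line, and at 139, 226 and 297 CPM against 112, 153 and 190 CPM in the YTHDC1 line. It rose with no overlap in the ZCCHC8 line (0.51 ± 0.07) and fell with overlap in the YTHDC1 line (-0.55 ± 0.07, edgeR adjusted p = 1.65e-06). Platr4, a noncoding RNA of pluripotent cells, changed by 0.92 ± 0.08 and -0.53 ± 0.08. Lncenc1, also of naive cells, changed by 0.27 ± 0.06 and -0.45 ± 0.05, and Mir124a-1hg, a host of miR-124, by 0.81 ± 0.16 and -0.59 ± 0.17. The fall of Mir124a-1hg was uneven, with medians of 1.80 CPM in Ctrl against 1.69 CPM in dTAG libraries of the YTHDC1 line. Its Ctrl libraries there ran from 0.85 to 8.85 CPM, and 2 of 6 pairs moved up.

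Dancr and Snhg20, noncoding hosts of small RNAs, rose in the ZCCHC8 line. Dancr (chr5:74093060-74095406) had a median of 41.2 CPM in Ctrl against 108 CPM with dTAG there, against 52.9 and 60.5 CPM in the YTHDC1 line, where its response of 0.15 ± 0.06 missed the threshold (edgeR adjusted p = 0.0563). A second entry named Dancr, which the annotation used here lacks, rose in both lines (1.88 ± 0.08 and 0.29 ± 0.07), and how reads were shared between the entries is not given in the sources used here. The difference was 1.34 ± 0.09 for the annotated Dancr and 1.29 ± 0.09 for Snhg20. Neat1, the scaffold of paraspeckles, differed by 1.27 ± 0.15 and Malat1, the RNA of nuclear speckles, by 0.35 ± 0.11, and neither passed the threshold in the YTHDC1 line (-0.21 ± 0.11 and -0.01 ± 0.08). Of 5 host genes of small nucleolar RNAs tested, 3 rose after ZCCHC8 depletion (60.0%, against 20.0% of all genes). After YTHDC1 depletion 1 rose and 1 fell (20.0% each, against 13.8% and 16.3%).

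The 5 largest differences among other genes with a mean of at least 2 CPM belonged to genes that rose in the ZCCHC8 line and were not called in the YTHDC1 line. Hist2h2be (chr3:96221119-96223738), a histone H2B gene, lay at 0.39, 0.94 and 1.56 CPM in Ctrl against 14.0, 19.6 and 22.0 CPM in dTAG libraries in the ZCCHC8 line. In the YTHDC1 line it lay at 1.32, 1.57 and 2.09 CPM against 1.16, 1.63 and 2.02 CPM. The arms were far apart in the former and overlapped in the latter, and the difference was 4.21 ± 0.29 (edgeR adjusted p = 5.75e-14). Of 30 replication-dependent histone genes tested, 6 rose and 2 fell after ZCCHC8 depletion and 1 rose after YTHDC1 depletion. The rises after ZCCHC8 depletion were 20.0% of the list, as over all genes. Its falls (6.67%) and the rise after YTHDC1 depletion (3.33%) were below the 20.2% and 13.8% over all genes. These counts depended on the 0 min libraries, without which 18 of the 30 rose after YTHDC1 depletion (median 0.36). Without them 9 rather than 2 had a called lower response in the ZCCHC8 line (median difference of -0.27 against 0.02). Besides Hist2h2be, Hist2h3c1 (1.45 ± 0.18), Hist1h4i (1.51 ± 0.25) and Hist1h3d (0.74 ± 0.18) had higher responses in the ZCCHC8 line. Histone genes are a multigene family with close copies, so single-gene values are uncertain. The 4 genes next in order were the lincRNAs Gm26734, Gm42997, 1810019N24Rik and 4932422M17Rik, with differences of 3.88, 3.84, 3.78 and 3.78. Hist2h2be, Gm26734, Gm42997 and 1810019N24Rik averaged over 2 CPM in the dTAG libraries of the ZCCHC8 line alone (18.5, 11.2, 10.4 and 18.6 CPM). They thus met the minimum of 2 CPM through the arm in which they rose, and the ranking favours such genes.

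Genes of pluripotency and chromatin leaned apart by small amounts. Of 20 naive pluripotency genes, 8 rose and 1 fell after ZCCHC8 depletion (40.0% and 5.0%, against 20.0% and 20.2% of all genes). After YTHDC1 depletion 1 rose and 5 fell (5.0% and 25.0%, against 13.8% and 16.3%). A difference was called for 9 (45.0%, against 20.0% of all genes), all higher in the ZCCHC8 line. Dppa3, a maternal factor that limits DNA methylation, had medians of 89.0 against 135 CPM in the ZCCHC8 line and 127 against 108 CPM in the YTHDC1 line, with overlap in both, and a difference of 0.79 ± 0.09 (edgeR adjusted p = 1.09e-08). Nanog, a core pluripotency factor, changed by 0.20 ± 0.05 and -0.27 ± 0.05. Of 20 factors of retroelement silencing, 5 rose and 2 fell after ZCCHC8 depletion (25.0% and 10.0%, against 20.0% and 20.2%). After YTHDC1 depletion 9 fell (45.0%, against 16.3%) and none rose. The largest difference was that of Ehmt2, the H3K9 methyltransferase G9a, whose median was 207 against 197 CPM in the ZCCHC8 line and 149 against 98.1 CPM in the YTHDC1 line (-0.60 ± 0.07). Uhrf1 and Dnmt1, which maintain DNA methylation, had YTHDC1 responses of -0.33 ± 0.04 and -0.24 ± 0.04 and ZCCHC8 responses of 0.10 ± 0.04 each, called for Dnmt1 and not for Uhrf1. Counts in these lists were sensitive to the fit, and without the replicate block 3 naive genes and 4 silencing genes had a called difference.

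Formative and early lineage genes mostly rose where they were called. Of 19 tested, 10 rose and none fell after ZCCHC8 depletion (52.6% against 20.0% of all genes for the rises), and 6 rose and 1 fell after YTHDC1 depletion (31.6% against 13.8%). A difference was called for 8, while 3 were higher in both, of which none stayed so without the replicate block. Pou3f1, a factor of the formative state, had medians of 4.13 against 7.55 CPM in the ZCCHC8 line and 3.98 against 5.37 CPM in the YTHDC1 line. Lef1, an effector of Wnt signalling, changed by 0.70 ± 0.18 and 0.58 ± 0.15, and Sox3, which is X-linked, by 0.39 ± 0.15 and 0.54 ± 0.15. Dnmt3a, a de novo DNA methyltransferase, moved in opposite directions (0.49 ± 0.05 and -0.39 ± 0.05), and Otx2, a forebrain and epiblast factor, had a difference of 1.13 ± 0.18 with a YTHDC1 response that missed the threshold. T, the mesoderm factor Brachyury, rose in the YTHDC1 line (0.69 ± 0.16) and not detectably in the ZCCHC8 line (0.06 ± 0.17).

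**Figure D3:**
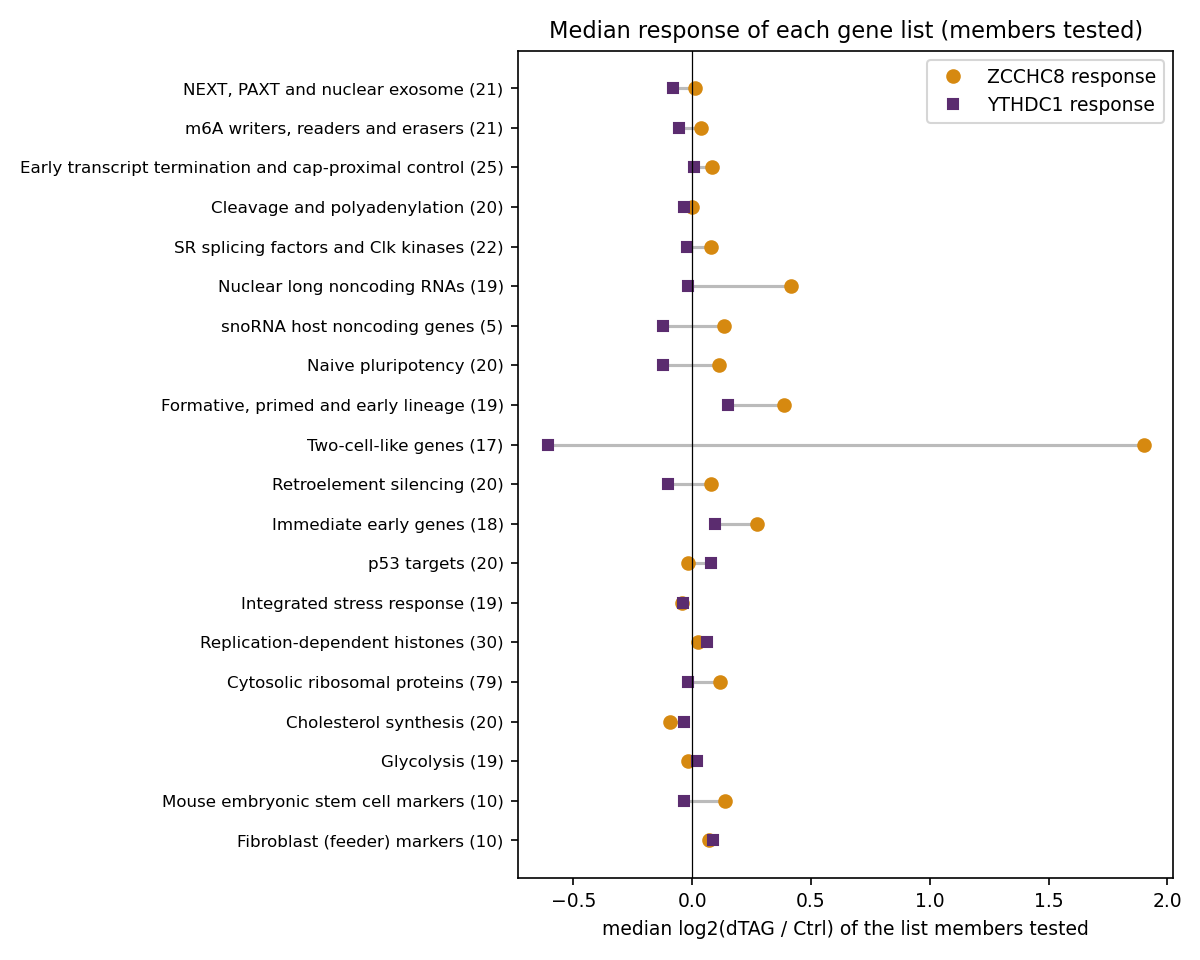
Median log2 response of the tested members of 20 gene lists (numbers tested in brackets) in the ZCCHC8 (circles) and YTHDC1 (squares) lines. The two-cell-like genes stand at 1.90 and -0.61, the nuclear long noncoding RNAs at 0.42 and -0.02, and the medians of the other lists lie between -0.12 and 0.39.

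Genes that rose in both lines tended to be low in level, with a median of 18.3 CPM against 24.9 CPM over all genes tested, and 88 of 366 exceeded 0.5 on the log2 scale in both lines. 1500011B03Rik (chr5:114808196-114823468), a protein-coding gene with no overlapping annotation, was the most abundant of the 8 leading genes. It lay at 16.6, 18.7 and 21.1 CPM in Ctrl against 34.9, 35.9 and 43.6 CPM in dTAG libraries in the ZCCHC8 line, and at 17.6, 21.0 and 25.1 CPM against 31.6, 37.6 and 46.3 CPM in the YTHDC1 line. The arms were apart in both lines. Its responses were 0.98 ± 0.07 and 0.85 ± 0.06, with edgeR adjusted p of 2.34e-14 and 2.39e-13, and the difference between them was 0.13 ± 0.09 (edgeR adjusted p = 0.269).

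Mecom, the zinc-finger factor EVI1, changed by 1.11 ± 0.19 and 1.23 ± 0.20, from medians of 2.19 to 4.85 CPM in the ZCCHC8 line and of 0.93 to 2.62 CPM in the YTHDC1 line. It overlaps 2 annotated genes on the opposite strand and 5 on the same strand. Tmem203, a small membrane protein gene, changed by 1.02 ± 0.18 and 1.08 ± 0.14, with the arms apart in both lines. Gpx8, a glutathione peroxidase of the endoplasmic reticulum, changed by 0.79 ± 0.13 and 0.91 ± 0.10. The lincRNA Fam120aos rose by 1.65 ± 0.14 and 0.89 ± 0.12, and Gm26829, another lincRNA, by 0.96 ± 0.23 and 0.77 ± 0.14. Fam120aos and A730071L15Rik rose in both lines but by different amounts, with differences of 0.76 ± 0.19 and 2.09 ± 0.30, whereas no difference was called for the other 6 leading genes, which include 1700037C18Rik (1.50 ± 0.25 and 1.01 ± 0.19).

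Genes that fell in both lines were more abundant, with a median of 59.1 CPM, and their changes were small, with medians of -0.28 and -0.24 and 33 of 527 over 0.5 on the log2 scale in both lines. Mipol1 (chr12:57230427-57497199) had the largest fall of the 8 leading genes in the YTHDC1 line. It lay at 17.0, 19.3 and 21.0 CPM in Ctrl against 8.23, 11.5 and 13.0 CPM in dTAG libraries in the ZCCHC8 line, and at 20.5, 21.7 and 23.8 CPM against 7.21, 8.52 and 9.94 CPM in the YTHDC1 line. The gene overlaps 2 annotated genes on the opposite strand and 1 on the same strand. The arms were apart in both lines, and the fall was larger after YTHDC1 depletion (-1.35 ± 0.09) than after ZCCHC8 depletion (-0.78 ± 0.10), with an edgeR adjusted p of 7.7e-04 for the difference.

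Ppp6r2, a regulatory subunit of protein phosphatase 6, fell from a median of 5.83 to 2.23 CPM in the ZCCHC8 line and of 5.54 to 3.08 CPM in the YTHDC1 line, with no overlap in either. BC067074 and the ubiquitin ligase gene Rnf157 also fell with no overlap in either line, by log2 responses of -0.88 ± 0.10 and -1.11 ± 0.09, and of -1.01 ± 0.14 and -0.86 ± 0.12. Pck2, the mitochondrial phosphoenolpyruvate carboxykinase, changed by -0.82 ± 0.09 and -0.87 ± 0.08, with overlap of the arms across chase times. Shc2, Klhl5 and the splicing factor gene Prpf40b had ZCCHC8 responses of -1.06, -0.68 and -0.67 and YTHDC1 responses of -0.80, -0.69 and -0.70. Differences between the lines were not called for 7 of these 8 genes, Mipol1 being the exception. Of 19 genes of the integrated stress response, 5 rose and 7 fell after ZCCHC8 depletion (26.3% and 36.8%, against 20.0% and 20.2% of all genes). After YTHDC1 depletion none rose and 5 fell (26.3%, against 16.3%). Of the 19, 3 fell in both lines, as did 3.69% of all genes, and 1 did so without the replicate block. Ppp1r15a moved in opposite directions (0.29 ± 0.08 and -0.28 ± 0.08). The 3 that fell in both were Asns, Psat1 and Aldh18a1, enzymes of asparagine, serine and proline synthesis. Their responses were -0.26 ± 0.04 and -0.18 ± 0.04, -0.27 ± 0.04 and -0.15 ± 0.04, and -0.40 ± 0.07 and -0.28 ± 0.06.

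**Figure D4:**
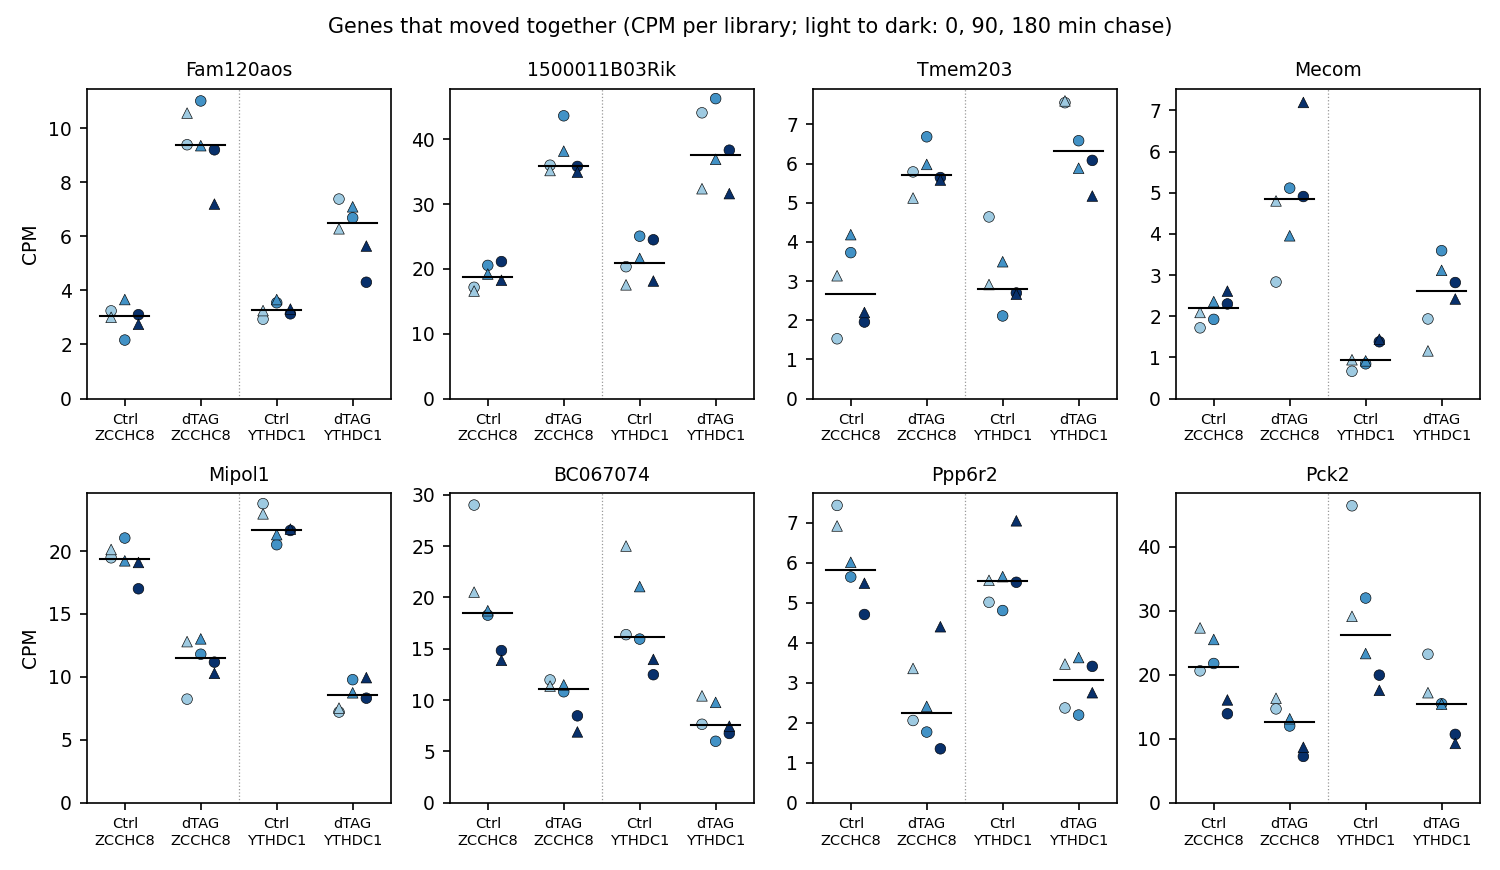
CPM per library of 4 genes higher (top) and 4 genes lower (bottom) after both depletions, in the Ctrl and dTAG arms of the ZCCHC8 (left pair) and YTHDC1 (right pair) lines, with circles for replicate 1, triangles for replicate 2, lighter to darker points for 0, 90 and 180 min and a bar at the median of 6 libraries. The arms of 1500011B03Rik, Fam120aos, Tmem203, Mipol1, BC067074 and Ppp6r2 are apart in both lines.

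The groups also differed in how much of their RNA was new. The deposited estimate of the new-to-total ratio at 0 min, over genes with at least 50 reads in both arms of a pair, had medians of 0.295 and 0.33 in the Ctrl libraries of the ZCCHC8 line and 0.325 and 0.364 in those of the YTHDC1 line for genes that fell in both. Over all genes tested the medians were 0.536 and 0.588, and 0.582 and 0.628. Both opposite groups lay above that, between 0.614 and 0.712 in Ctrl libraries. Genes that rose in both lay between 0.518 and 0.615, close to the values over all genes. These are descriptions over genes, and they concern Ctrl libraries, not the changes. Density of GGACT, the core m6A motif, in transcripts was alike in all groups, with medians of 0.97 to 1.08 per kb against 1.04 over all genes, as was GC content (49.5 to 50.4% against 50.0%).

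**Figure D5:**
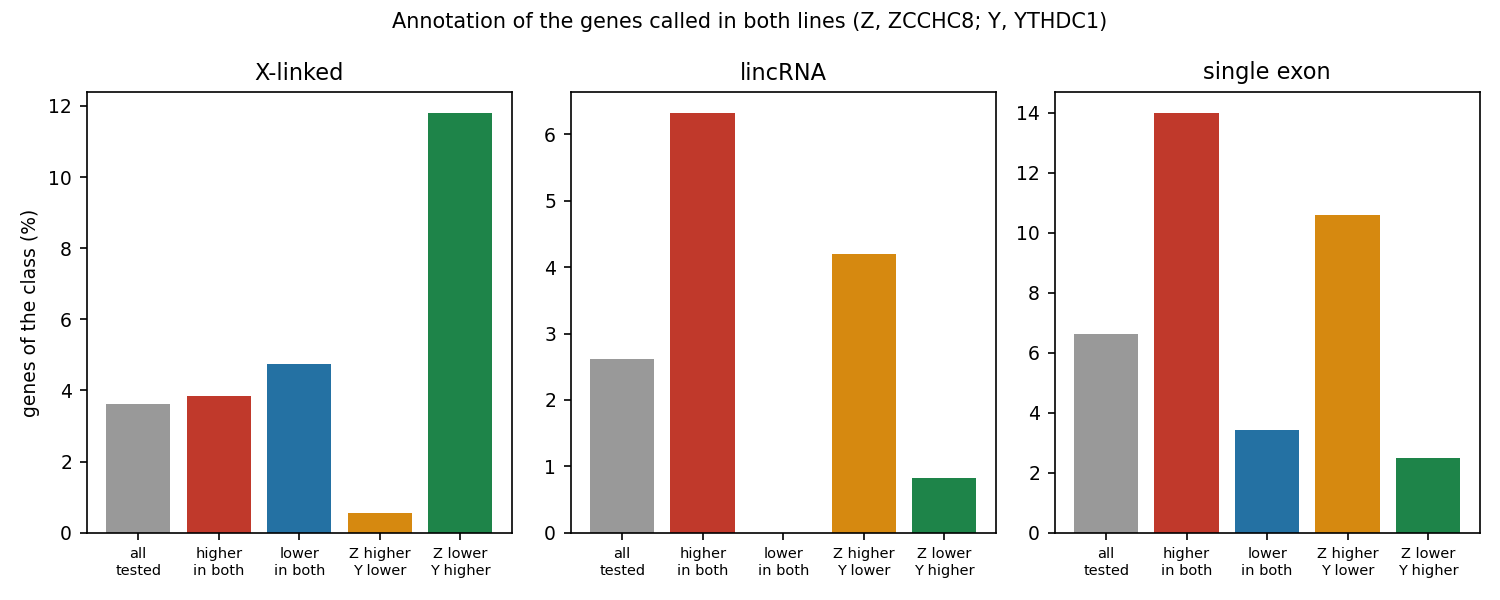
Share (%) of X-linked genes, lincRNAs and single-exon genes among all annotated genes tested and in each of the 4 groups called in both lines (Z, ZCCHC8; Y, YTHDC1). X-linked genes are 11.8% of the genes lower after ZCCHC8 and higher after YTHDC1 depletion and 0.55% of those that moved the other way, and lincRNAs are absent from the genes lower in both.

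Transcripts for the machinery itself were called at differing rates. Of 21 genes of NEXT, PAXT and the exosome, 3 rose and 4 fell after ZCCHC8 depletion, 4 fell after YTHDC1 depletion, and 8 had a called difference. Rises were 14.3% of the list against 20.0% of all genes, and the falls were also near the 20.2% and 16.3% over all genes. Without the replicate block 1 fell after ZCCHC8 depletion, none was called after YTHDC1 depletion, and 2 differences were left. Zcchc14 had the largest difference of the list (-0.52 ± 0.07), with a fall in the ZCCHC8 line (-0.56 ± 0.05). It was counted with the list but is not an established subunit of these complexes. Exosc3, an exosome cap subunit, fell in both lines, by 0.22 and 0.21 on the log2 scale. Of 21 writers, readers and erasers of m6A, 3 rose and 1 fell after ZCCHC8 depletion and 6 rose and 7 fell after YTHDC1 depletion. The latter were 28.6% and 33.3%, against 13.8% and 16.3% of all genes, and 1 rise and 3 falls were left without the block. Ythdc1 itself had the largest difference of the list (-0.57 ± 0.11), with its arms apart in the YTHDC1 line. Igf2bp1, a cytoplasmic m6A reader, moved in opposite directions (0.28 ± 0.05 and -0.22 ± 0.05), Ythdf1 differed by 0.32 ± 0.06, and Rbm15, a subunit of the writer, rose in both (0.27 and 0.19).

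Among 25 genes of early termination and control near the cap, 9 rose and 1 fell after ZCCHC8 depletion. Over all genes, 20.0% rose and 20.2% fell there. After YTHDC1 depletion 1 of the 25 rose and 3 fell, where 13.8% and 16.3% of all genes did. A difference was called for 7 of the 25, all higher in the ZCCHC8 line, as it was for 20.0% of all genes. Without the replicate block 6 rose after ZCCHC8 depletion, 1 fell after YTHDC1 depletion and 4 differences were left. Ints5, an Integrator subunit, moved in opposite directions (0.29 ± 0.05 and -0.37 ± 0.05). Hexim1, an inhibitor of the elongation factor P-TEFb, rose from a median of 129 to 205 CPM in the ZCCHC8 line with no overlap and stood at 102 and 103 CPM in the YTHDC1 line, and Ints6 rose in both (0.61 and 0.23). Of 20 cleavage and polyadenylation genes, 5 rose and 2 fell after ZCCHC8 depletion and 1 rose and 4 fell after YTHDC1 depletion, with Clp1 (0.40 ± 0.05 and -0.13 ± 0.05) and Cstf3 (0.28 and -0.24) in opposite directions. The rises and falls were 25.0% and 20.0%, against 20.0% and 16.3% of all genes, and neither Clp1 nor Cstf3 was called in both lines without the block. Of 22 SR factors and Clk kinases, 6 rose and 2 fell after ZCCHC8 depletion and 7 fell after YTHDC1 depletion, none of them called in both lines. Shares were 27.3% against 20.0% of all genes for the rises and 31.8% against 16.3% for the falls after YTHDC1 depletion, but without the block none was called after ZCCHC8 and 2 fell after YTHDC1 depletion, and without the 180 min libraries 1 rose after ZCCHC8 depletion.

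Ribosomal protein genes shifted together by a small amount in the ZCCHC8 line. Of 79 cytosolic ribosomal protein genes, 38 rose (48.1%, against 20.0% of all genes) and 1 fell after ZCCHC8 depletion. After YTHDC1 depletion 1 rose and 1 fell, and the medians were 0.12 and -0.02. A difference was called for 29 of them, but for none without the replicate block, where 2 were higher after ZCCHC8 depletion. Of 20 p53 targets, 1 rose and 4 fell after ZCCHC8 depletion (5.0% and 20.0%, against 20.0% and 20.2% of all genes). After YTHDC1 depletion 4 rose (20.0%, against 13.8%). Perp, a desmosomal membrane protein, moved in opposite directions (-0.23 ± 0.08 and 0.38 ± 0.07). Cholesterol synthesis genes (20 tested) had 2 rises and 6 falls in the ZCCHC8 line (10.0% and 30.0%, against 20.0% and 20.2%). In the YTHDC1 line they had 1 rise and 2 falls (5.0% and 10.0%, against 13.8% and 16.3%). Idi1, an isomerase of the pathway, changed by 0.22 ± 0.06 and -0.28 ± 0.06. Among 19 glycolysis genes, 2 rose and 4 fell in the ZCCHC8 line (10.5% and 21.1%, against 20.0% and 20.2%). In the YTHDC1 line 4 rose and 2 fell (21.1% and 10.5%, against 13.8% and 16.3%). Slc2a1, the glucose transporter GLUT1, fell in both (-0.28 and -0.16), Pdk1, a kinase that restrains pyruvate dehydrogenase, rose in both (0.25 and 0.28), and the X-linked Pgk1 moved in opposite directions (-0.20 and 0.12). Without the block no p53, cholesterol or glycolysis gene of these lists was called in both lines.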

How the data were processed

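SLAM-seq libraries of 2 lines (12 groups of line, arm and chase time, 2 replicates each) were analysed, and the METTL3 libraries entered 1 alternative. Per the study's methods and the labels, the authors removed reads that matched rRNA, aligned the rest to mm10 with STAR 2.5.2b keeping single alignments, and quantified genes with GRAND-SLAM. The deposited counts are unnormalized reads per gene, and the deposited fractions are the authors' new-to-total estimates. Of the library columns, 60 were used, and 372 that name no sample here were not. A gene missing from a line's table was taken as 0 reads there.

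Counts were fitted with edgeR 4.0.16 (quasi-likelihood test, TMM, R 4.3.3) over 24 libraries, with arm within line, chase time as a factor and replicate nested in line (8 coefficients, 16 residual degrees of freedom). Low genes were removed with edgeR's filter, leaving 14270 genes with 99.9% of reads, and p-values were adjusted by Benjamini-Hochberg over all of them. Chase time was thus common to the lines. ± is the SE of a log2 change. Same-numbered Ctrl and dTAG libraries deviated together (correlations of 0.137 to 0.152 in the ZCCHC8 and 0.599 to 0.664 in the YTHDC1 line), so the numbers were kept as a block. On simulated counts with 200 genes changed 2-fold in the difference, 165 (82.5%) were recovered, with 14 false calls. Reads are not separate molecules.

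Coordinates and biotypes are from GENCODE M21 (GRCm38, the build named mm10), which held 14256 of the genes tested. Named genes had a mean of at least 2 CPM and were the first 8 of each group called in both lines (ranked by the smaller change, with 6 of 6 pairs agreeing, or at least 5 of 6 for opposite genes), the 5 largest and smallest other differences, up to 4 called differences per list, and 5 set names. One gene that this rule picks is not reported here. Further list members were named after their values were seen. The comparison and the 20 lists were chosen with earlier results of these data known. DESeq2 1.42.0 and other settings were alternatives.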

Additional observations from a re-analysis of the deposited data

Results flagged for a closer look

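These results stand out because the effect of depletion differed between the ZCCHC8 and YTHDC1 lines by the test of the difference itself. It was called for 2851 genes with a higher and 2688 with a lower response in the ZCCHC8 line, and the opposite groups held 549 and 485 genes. On the log2 scale, ZCCHC8 minus YTHDC1, the differences were 2.85 for Slc25a34, 3.16 for AC121569.2, 2.33 for Ehd2, 2.98 for Gm4340, 1.98 for Shisa7, 3.33 for Gm12800, 2.84 for Gm2035 and 2.25 for Parp3. In the other direction they were -4.06 for Nyap2, -1.97 for Zbbx, -1.85 for Sntb1, -1.74 for Rai2, -1.62 for Nckap1l, -1.70 for Zxdb, -2.12 for Cntf and -1.46 for Frmd5. Other genes picked for large differences were Hist2h2be (4.21), Gm26734 (3.88), Gm42997 (3.84), 1810019N24Rik (3.78), 4932422M17Rik (3.78), Ckm (-1.74), 4930502E18Rik (-1.55), Angpt2 (-1.53) and Klhl36 (-1.49). Of them, Angpt2 and Klhl36 also belong to the group lower after ZCCHC8 and higher after YTHDC1 depletion. Differences were also called for Ythdc1 (-0.57), Xist (1.06), Neat1 (1.27) and Malat1 (0.35).

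By list, a difference was called for 17 two-cell-like genes, 14 nuclear long noncoding RNAs, 29 ribosomal protein genes and 10 retroelement silencing genes, and for 9 naive, 8 formative or early lineage and 4 marker genes of mES cells. It was called for 8 genes each of NEXT, PAXT and the exosome, of m6A, of cleavage and polyadenylation, of SR factors and Clk kinases, of the immediate early and of the p53 list. It was called for 7 genes of early termination, 6 of the integrated stress response, 6 histone genes, 5 of cholesterol synthesis, 4 of glycolysis, 4 fibroblast markers and 3 snoRNA hosts. The share over all genes tested was 38.8%. Groups of 2 libraries were too small to be searched for single libraries that stand apart.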

How the results depend on the processing

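Without the replicate block, which rests on the pairing of replicate numbers, calls fell to 3367 in the ZCCHC8 line, 1706 in the YTHDC1 line and 2933 for the difference, and to 139 genes higher in both, 147 lower in both, 217 higher after ZCCHC8 and lower after YTHDC1 depletion and 129 the other way, all among the genes called with the block apart from 1 in the ZCCHC8 line. Leaving out 1 replicate of 1 or both lines gave 2818 to 6568 calls in the ZCCHC8 line, 1397 to 4264 in the YTHDC1 line, 2145 to 5401 for the difference, 91 to 246 higher in both, 134 to 368 lower in both, 130 to 410 higher after ZCCHC8 and lower after YTHDC1 depletion and 62 to 459 the other way, lowest for all 7 without replicate 2 of both lines. Without the 90 min libraries the counts in the same order were 3803, 2281, 3572, 147, 197, 243 and 186. Without the 180 min libraries the 4 groups held 228, 350, 300 and 252 genes. With all 36 libraries, 224 were higher in both, 340 lower in both and 320 higher after ZCCHC8 and lower after YTHDC1 depletion. With libraries thinned to the smallest, 214 were higher in both and 362 higher after ZCCHC8 and lower after YTHDC1 depletion. Fewer samples or reads enter several of these fits, and the cause was otherwise not tested. The other counts stayed within 1.5 times under chase time nested in line, DESeq2 size factors, DESeq2, other filters, separate fits and summed chase libraries. Of 169 values of named genes, 107 kept sign and call in every setting run. The difference of Zcchc8, called in none, changed sign in 4 settings (-0.026 with all 36 libraries, -0.014 without the 90 min libraries, -0.037 without ZCCHC8 replicate 1 and -0.015 without YTHDC1 replicate 2) and reached 0.042 without ZCCHC8 replicate 2. The two-cell-like list kept all its tested members higher after ZCCHC8 depletion in the settings named here, and its falls after YTHDC1 depletion are given with the result.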
